A study of Mus musculus with 17 samples.

Results

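Genes of the cytotoxic granule were followed across sorted mouse T helper cells of the Th2 type. The set holds 9 genes of the 24537 in the deposited tables, taken by symbol, in a set that was proposed with earlier results of these data known: the granzymes Gzma, Gzmb, Gzmc and Gzmk, the pore-forming protein gene Prf1, the granule proteoglycan gene Srgn, the granule protease gene Ctsw, the granule membrane protein gene Nkg7 and the NK cell receptor gene Klrb1c. All 9 had a row in each of the 17 libraries. RNA was sequenced with Smart-seq2, a method for small cell numbers, from FACS-purified lymphocytes in 6 groups. Airway reporter (3 libraries) and lymph node reporter cells (3) came from GATIR mice, which carry a Gata3-YFP reporter for the Th2 regulator Gata3, and were taken by lavage of the airways and from the mediastinal lymph node. The sample titles label the libraries of both reporter groups WT, for wild type. The lymph node wild type group (3) and the knockout-labelled group (4) hold mediastinal lymph node cells of OTII mice, whose T cells share a transgenic receptor for ovalbumin, the latter labelled OTII_Notch1/2-KO. All mice that gave lymph node or airway cells had an airway inflammation driven by allergen, and the column headers of the lymph node OTII tables name OVA-HDM. Naive spleen T cells of OTII mice of both genotypes, grown for 7 days with IL-4 and antibodies against IFN-γ and IL-12/23 on plates coated with anti-CD3/CD28, gave the cultured wild type group (2) and the cultured knockout-labelled group (2). The sort markers, the Cre driver behind the knockout and the age of the mice are not given in the sources used here.

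Cytotoxic granules are best known from NK cells and CD8 T cells. Granzymes are serine proteases that are stored in them on a serglycin scaffold (Srgn) and reach the cytosol of a target cell through perforin pores (Prf1), where granzyme B starts apoptosis. Activated CD4 T cells can also transcribe granzyme genes, and in CD8 T cells Notch receptors, which act in the nucleus through RBPJ, are known to take part in the control of Gzmb and Prf1.

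Levels are given as scaled RPKM, the deposited reads normalized to transcript length and library size, divided by a scaling factor for each library. A difference was called when limma's test on log2(scaled RPKM + 1) gave an adjusted p (Benjamini-Hochberg over all genes tested) under 0.05, and a log2 fold change is on that scale, which understates the change of low genes. The libraries held 16.3 to 27.5 M reads. Pearson's r across genes between replicates was 0.897 to 0.934 for airway, 0.968 to 0.979 for lymph node reporter and 0.991 or more for OTII libraries, where genes are not independent replicates. Of 3073 genes at 20 scaled RPKM or more in every OTII library, airway replicates 1 and 2 listed 38 and 49 at 0. The third airway library listed 2 and each lymph node reporter library at most 1. OTII libraries could list none, as the genes were chosen by their levels there. A 0 in airway replicates 1 and 2 may thus be a failed estimate or a gene that is off in these cells, which was not tested. Over all genes, airway libraries listed 12317 to 14385 at 0 and lymph node reporter libraries 12177 to 12982, against 9432 to 10128 in OTII libraries. A 0 of a low gene in any reporter library is therefore uncertain. The series calls its samples biological replicates without naming animals, and the p-values measure the spread between these libraries. Cd4, Cd3e and Gata3 were present in all 17 libraries. In the lymph node, Gata3 was lower in the knockout-labelled than in the wild type libraries (40.3 ± 4.51 against 56.0 ± 5.51; log2 difference -0.47, limma adjusted p = 0.0169), and of the 8 T cell markers Trat1 (60.1 ± 7.10 against 14.7 ± 4.77) and Cd3g (802 ± 75.5 against 569.9 ± 34.7) were called higher. Notch1, a targeted gene, averaged 47.9 ± 1.47 (SD, n = 3) in wild type and 10.9 ± 2.31 (n = 4) in knockout-labelled lymph node libraries, and 27.9 ± 2.22 and 2.64 ± 2.24 (n = 2 each) in culture. Notch2, the other targeted gene, was higher in the lymph node libraries labelled knockout (16.2 ± 2.09 against 7.88 ± 0.305; log2 fold change 0.95, SE 0.11, limma adjusted p = 5.95e-04). The deleted exons are not given, so a level over the whole transcript checks the Notch2 label neither way.

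The 4 granzyme genes lie at 2 places in the mm10 genome, and the promoters of Gzmb, Gzma, Gzmk and Prf1 are shown here. Gzmb (NM_013542, chr14:56258836-56262334, minus strand) and Gzmc (NM_010371, chr14:56231401-56234657, minus strand) belong to a cluster of 7 granzyme genes within 144.6 kb of chromosome 14. Gzma (NM_010370, chr13:113093827-113100981, minus strand) and Gzmk (NM_008196, chr13:113171874-113180897, minus strand) lie together within 132.1 kb of chromosome 13. Each sequence below is the 250 bases upstream of the gene's start in the RefSeq promoter table of GRCm38.p6 and reads 5′ to 3′ on the gene's strand. That start lies upstream of the deposited transcript for Gzmk. Capitals mark matches on either strand. The letters searched for were TGTGGT for RUNX factors. For AP-1 they were TGANTCA. For T-box factors they were GTGTGA. For RBPJ, the Notch partner, they were TGGGAA. No marked matches overlap.

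Gzmb promoter, chr14:56262335-56262584, minus strand: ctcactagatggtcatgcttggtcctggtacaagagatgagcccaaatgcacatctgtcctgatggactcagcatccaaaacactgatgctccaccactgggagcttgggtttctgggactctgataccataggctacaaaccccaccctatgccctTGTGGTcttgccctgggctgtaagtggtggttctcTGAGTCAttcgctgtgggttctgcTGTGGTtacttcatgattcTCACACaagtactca
Gzma promoter, chr13:113100982-113101231, minus strand: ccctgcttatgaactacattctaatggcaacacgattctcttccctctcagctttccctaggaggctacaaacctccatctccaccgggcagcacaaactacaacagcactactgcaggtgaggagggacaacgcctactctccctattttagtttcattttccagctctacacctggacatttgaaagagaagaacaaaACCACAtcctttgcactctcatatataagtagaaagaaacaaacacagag
Gzmk promoter, chr13:113180966-113181215, minus strand: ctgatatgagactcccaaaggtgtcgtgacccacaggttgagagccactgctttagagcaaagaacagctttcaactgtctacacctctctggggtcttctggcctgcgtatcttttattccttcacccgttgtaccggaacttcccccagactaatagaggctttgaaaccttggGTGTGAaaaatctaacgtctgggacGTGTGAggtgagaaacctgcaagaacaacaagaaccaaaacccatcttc
Prf1 promoter, chr10:61297586-61297835, plus strand: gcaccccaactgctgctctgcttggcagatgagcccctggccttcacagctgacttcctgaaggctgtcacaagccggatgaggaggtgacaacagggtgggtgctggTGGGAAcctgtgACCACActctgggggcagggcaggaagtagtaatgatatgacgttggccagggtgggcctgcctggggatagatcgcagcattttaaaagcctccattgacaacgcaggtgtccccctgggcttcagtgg

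A match is a run of letters and not a measured binding site. Gzmb held 2 RUNX matches, 1 AP-1 match and 1 T-box match, Gzma 1 RUNX match, Gzmk 2 T-box matches, and Prf1 1 RBPJ match next to 1 RUNX match. Among 32851 RefSeq promoters of the same length, RUNX letters occurred in 14.0%, AP-1 letters in 6.75%, T-box letters in 12.3% and RBPJ letters in 21.6%. The letters TGATAA, searched for as a GATA motif and found in 7.94% of all promoters, occurred in none of the members' windows. RBPJ letters occurred in the Prf1 window alone among the 8 members with an entry. Ctsw had no entry. None of these windows was measured for binding in the data used here.

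The 9 genes formed no common pattern across the groups. Srgn was at 318 scaled RPKM or more in every library. Gzma and Gzmb averaged 2.15 and 2.88 in lymph node knockout-labelled libraries and 3077 and 1657 in cultured wild type ones, and Prf1 stayed below 10 in all 17 libraries. Ctsw and Gzmk had their highest group means in the lymph node knockout-labelled libraries, Klrb1c in the lymph node wild type libraries, Gzma, Gzmb, Gzmc and Prf1 in cultured wild type cells, and Srgn and Nkg7 in the lymph node reporter libraries. Reporter and OTII libraries come from different mice and sorts, so no test was made between them. In these bulk libraries, fewer cells that carry a transcript and less of it per cell cannot be told apart.

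**Figure D1:**
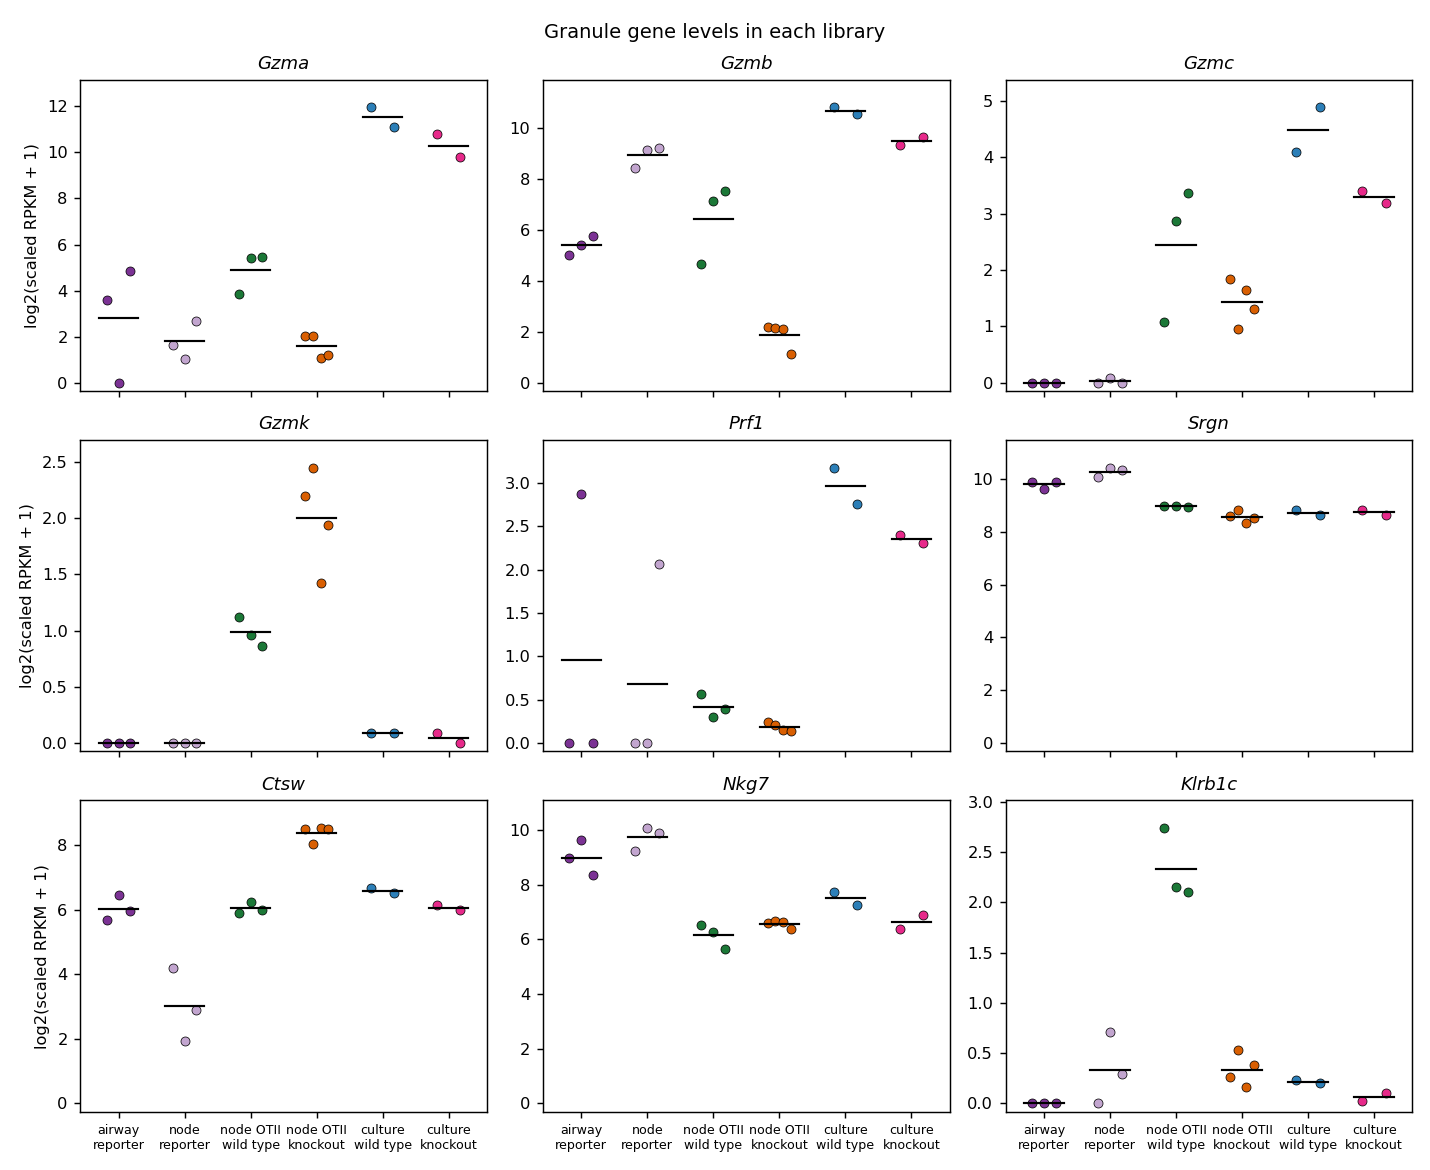
Level of each granule gene as log2(scaled RPKM + 1) in the 6 groups, with 1 point per library and a bar at the mean of the log2 values, each panel on its own axis. Gzmb is lowest in the 4 lymph node knockout-labelled libraries (1.16 to 3.52 scaled RPKM) and Ctsw is highest there (257 to 367).

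The genotype comparison in the lymph node asks which granule genes differ in Th2 cells when Notch1 and Notch2 are targeted. The granzymes divided. Gzma and Gzmb fell and Gzmk rose, while Ctsw rose and Klrb1c and, by a small margin, Srgn fell. Of the 8 members tested, 6 were called (2 higher and 4 lower), against 18.1% of the 10869 genes tested (10.4% higher and 7.68% lower). The groups did not overlap for these 6, against 31.2% of genes. Klrb1c was under 1 in every knockout-labelled library, so it passed the filter only through the wild type libraries, where it was high. Gzmk was under 1 in wild type replicates 2 and 3 and passed through the knockout-labelled libraries. The count of called members thus holds genes whose entry depended on the difference. Prf1 was below the filter.

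Gzmb stood at 24.3, 142 and 184 scaled RPKM in the wild type libraries and at 3.52, 3.45, 3.38 and 1.16 in the knockout-labelled ones. Every knockout-labelled library was below every wild type library, and wild type replicate 1 was far below the other wild type libraries. Its log2 fold change of -4.56 (SE 0.61, limma adjusted p = 0.00142) was the lowest of the 10869 genes tested, next to that of the Notch target gene Dtx1 at -4.55 (SE 0.14). Gzma, a tryptase-like granzyme, stood at 13.7, 42.1 and 42.4 in wild type and at 3.12, 3.03, 1.11 and 1.34 in knockout-labelled libraries. The groups did not overlap (log2 fold change -3.33, SE 0.40, adjusted p = 8.47e-04), and the knockout-labelled values rest on 22 to 67 reads a library.

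Gzmk, a granzyme of the chromosome 13 pair, had 1.18, 0.951 and 0.820 in wild type libraries (17, 16 and 14 reads) and 3.58, 4.46, 1.67 and 2.83 in knockout-labelled ones (59, 89, 30 and 42 reads). It was thus higher in each knockout-labelled library than in any wild type library, at a low level (log2 fold change 1.02, SE 0.22, adjusted p = 0.0137). Without wild type replicate 2 or 3 its adjusted p was 0.0558 or 0.06. Gzmc, the neighbour of Gzmb, stood at 1.12, 6.29 and 9.28 in wild type and 2.57, 0.933, 2.13 and 1.49 in knockout-labelled libraries. The groups overlapped through wild type replicate 1 (log2 fold change -1.0, SE 0.47, adjusted p = 0.183), and without that library Gzmc passed the test (-1.68, adjusted p = 0.00661). Of 50-base windows of Gzmc transcripts, 4.14% also occur in another gene, mostly Gzme, so a few of its reads could belong there.

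The first number in the column headers, whose meaning is not given, is 1 for wild type replicate 1 and knockout-labelled replicates 1 and 2, and 2 for the others. Among libraries with header number 1, Gzmb was 24.3 against 3.52 and 3.45, and Gzma was 13.7 against 3.12 and 3.03. Among those with header number 2, Gzmb was 142 and 184 against 3.38 and 1.16, and Gzma was 42.1 and 42.4 against 1.11 and 1.34. Both granzymes were thus lower in the knockout-labelled libraries within each number, and the gap was wider within number 2.

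Ctsw, which encodes the papain-like protease cathepsin W, stood at 58.6, 73.6 and 62.3 in wild type and 361, 257, 367 and 358 in knockout-labelled libraries. The lowest knockout-labelled library was more than 3 times the highest wild type library. At 2.35 on the log2 scale (SE 0.14, adjusted p = 2.13e-05), Ctsw (NM_009985, chr19:5465043-5468507, minus strand) moved opposite to Gzmb in the same libraries. Srgn (NM_011157, chr10:62494428-62507755, minus strand), which holds granzymes in the granule, stood at 508, 496 and 484 in wild type and 391, 448, 318 and 364 in knockout-labelled libraries. The groups did not overlap and differed little (log2 fold change -0.39, SE 0.11, adjusted p = 0.0428), and the call was lost under 9 of 17 other settings. Nkg7 (NM_024253, chr7:43437138-43438246, plus strand), a membrane protein that takes part in granule release, stood at 91.7, 75.4 and 48.9 against 95.9, 99.9, 97.1 and 81.0. Its groups overlapped (log2 fold change 0.41, SE 0.19, adjusted p = 0.163; 95% interval -0.01 to 0.84), and with the second header number as a term of the fit Nkg7 passed (0.47, adjusted p = 0.0491).

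Prf1 (NM_011073, chr10:61297836-61304263, plus strand) was close to the detection limit in the lymph node OTII libraries. Its wild type libraries held 0.480, 0.228 and 0.315 (18, 10 and 14 reads), and its knockout-labelled values were 0.186, 0.154, 0.107 and 0.103 (8, 8, 5 and 4 reads). The groups did not overlap, which was so for 31.2% of the genes tested, and no test was made at this depth. Thus the libraries with up to 184 scaled RPKM of Gzmb held under 1 of the pore gene.

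Klrb1c, which encodes the receptor known as NK1.1 in some strains, stood at 5.68, 3.44 and 3.30 in wild type (273, 193 and 188 reads) and 0.200, 0.450, 0.117 and 0.303 in knockout-labelled libraries (11, 30, 7 and 15 reads). The groups lay far apart (log2 fold change -2.0, SE 0.18, adjusted p = 1.66e-04). Klrb1c (chr6:128778485-128788641, minus strand; NM_001159904 in the OTII tables and NM_008527 in the reporter tables) shares 413 exon bases with the same-strand gene model Gm44511, and their reads cannot be told apart there. Of the 16 NK and CD8 T cell markers, 5 were lower in every knockout-labelled library than in any wild type library, all at 52 reads or fewer and none of them tested: Klrd1 (0.409 in wild type, 0.102 in knockout-labelled), Klrk1 (0.262 and 0.0576), Cd8a (0.580 and 0.264), Klrc1 and Tyrobp. Klrb1f (2.14 ± 0.696 and 5.15 ± 1.04, called higher) and Crtam were higher without overlap, and the other 9 overlapped. Among all genes tested, 31.2% had groups that did not overlap, in one direction or the other. Klrc1 had 1 to 6 reads in wild type and 0 to 1 in knockout-labelled libraries, so its gap lies at the detection limit. The list summed to 7.87 to 11 in wild type and 11.7 to 13.9 in knockout-labelled libraries with Klrb1f in the sum, and Ncr1, which defines NK cells, had 0 to 1 read in wild type and 0 to 3 reads in knockout-labelled libraries. Siglech, which defines plasmacytoid dendritic cells, had at most 1 read in these 7 libraries, where the 5 markers of these cells summed to 12 to 13.8 in wild type and 11.5 to 17.3 in knockout-labelled ones, mainly through Pacsin1. The 11 basophil and mast cell markers summed to 2.32 to 2.72 in wild type and 0.134 to 0.750 in knockout-labelled libraries. Hdc was most of the wild type sum (2.09 on average, against 0.189 in knockout-labelled libraries). Mcpt8, Fcer1a, Ms4a2, Prss34 and Mcpt4 were at 0 in every library of both groups. The part of all these other cells in the results, Klrb1c among them, was not tested.

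**Figure D2:**
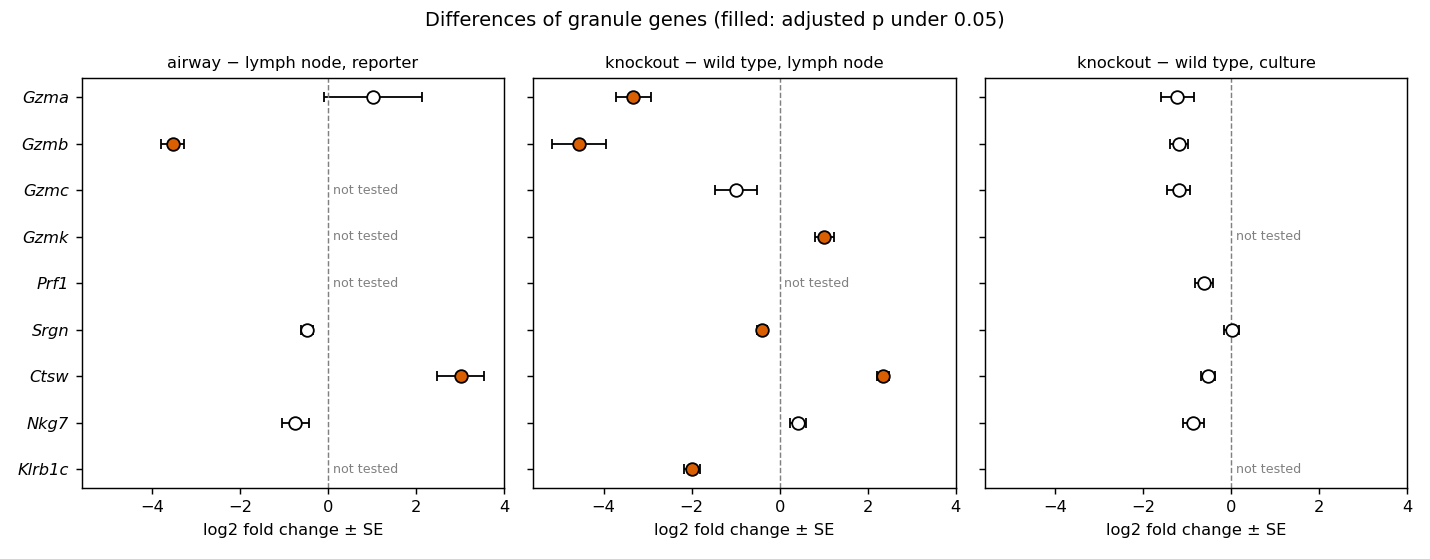
Log2 fold change ± SE of each granule gene for airway minus lymph node reporter cells (left) and for the genotype comparisons, knockout-labelled minus wild type, in lymph node (middle) and culture (right). Filled points passed the test: Gzmb (-3.54) and Ctsw (3.01) on the left, 6 genes in the middle from Gzmb (-4.56) to Ctsw (2.35), and no gene on the right.

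In culture the same genotypes were compared after 7 days of Th2 conditions. Gzma and Gzmb were the most abundant members there in both genotypes. No member was called: limma passed 0 of the 7 members tested and 0 of 10968 genes (0%), with 256 genes at an unadjusted p under 0.05. Voom on the reads passed 2 genes and the joint fit of the 4 OTII groups passed 1, and neither of these passed a member.

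Gzma stood at 3973 and 2181 in cultured wild type and 1754 and 899 in cultured knockout-labelled libraries. Gzmb stood at 1810 and 1504 against 653 and 813, and Gzmc at 16.1 and 28.6 against 9.56 and 8.17. For these granzymes both wild type libraries were above both knockout-labelled ones. The log2 fold changes were -1.23 for Gzma (SE 0.37, adjusted p = 0.9997; 95% interval -2.10 to -0.36), -1.18 for Gzmb (SE 0.20, adjusted p = 0.904; -1.65 to -0.71) and -1.19 for Gzmc (SE 0.26, adjusted p = 0.904; -1.79 to -0.60), with intervals that are not adjusted for the number of genes.

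The other members of the cultured cells were spread over a wide range of levels. Prf1 was 8.05 and 5.76 in wild type and 4.28 and 3.95 in knockout-labelled libraries, at 158 to 327 reads. Ctsw was 99.5 and 91.1 against 69.6 and 62.1, and Nkg7 was 211 and 151 against 81.7 and 118. In each of these 3 genes wild type stood above knockout-labelled cells without overlap, which was so in one direction or the other for 21.2% of the genes tested. Srgn was 448 and 397 against 453 and 397, and its groups overlapped (log2 fold change 0.01, 95% interval -0.39 to 0.40). Gzmk had 1 read in 3 of the cultured libraries and 0 in the remaining library, so that the granzyme with a called rise in the lymph node was at the detection limit here. Klrb1c had 9, 8, 1 and 4 reads.

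A single library moved some of these values. Without cultured knockout-labelled replicate 2 the log2 fold change of Gzmb went from -1.18 to -1.34, and without replicate 1 that of Gzma went from -1.23 to -1.71. Each of these fits left 1 library in the knockout-labelled group, whose spread it could not measure, so no test result is given for them. Markers of NK and CD8 T cells summed to 27.9 to 43.8 in cultured wild type and 18.1 to 23.5 in cultured knockout-labelled libraries, with Eomes as the most abundant (14.9 ± 4.77 against 10.6 ± 4.89). Ncr1 was at 0 in all 4, and the part of other cells in the granzyme values was not tested.

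Whether the difference between genotypes was itself different in lymph node and culture was tested as an interaction over the 11 OTII libraries. It was called for 2 of the 9 members, against 3.84% of the 11508 genes tested. Ctsw had the larger value. It was higher in knockout-labelled cells in the lymph node (log2 fold change 2.35) and lower in them in culture (-0.53, not called). These opposite differences were apart by 2.87 on the log2 scale (SE 0.22, adjusted p = 7.16e-05). Klrb1c was the other (-1.85, SE 0.27, adjusted p = 0.00379), and its call was lost on the reads with voom (adjusted p = 0.305). Klrb1c entered this fit only through the lymph node wild type libraries, as it was under 1 in all others. For Gzmb the value was -3.38 (SE 0.93, adjusted p = 0.0755; 95% interval -5.42 to -1.33) and for Gzma -2.10 (SE 0.70, adjusted p = 0.134). Neither passed, so a larger loss of these granzymes in the lymph node than in culture is not shown. Without lymph node wild type replicate 1, both passed (Gzmb -4.27, adjusted p = 0.0012; Gzma -2.62, adjusted p = 0.0351). Gzmk (1.06, adjusted p = 0.119), Nkg7 (1.27, adjusted p = 0.0685), Gzmc, Prf1 and Srgn were not called. Nkg7 passed without lymph node wild type replicate 1 (adjusted p = 0.0382) and Gzmk without lymph node knockout-labelled replicate 3 (adjusted p = 0.0217).

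The comparison of airway with lymph node cells of reporter mice asks how granule genes differ between Th2 cells in the lung and in the draining node. Gzmb fell in the airway and Ctsw rose. These were 2 of the 5 members tested, 1 in each direction, against 5.27% of 10111 genes (2.97% higher and 2.30% lower). Groups were apart for these and for Srgn, 3 of 5, against 26.9% of genes, and Gzmc, Gzmk, Prf1 and Klrb1c were below the filter.

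Gzmb stood at 345, 568 and 601 in node libraries and at 31.1, 42.1 and 53.8 in airway libraries. Every airway library was below every lymph node library (log2 fold change -3.54, SE 0.26, adjusted p = 3.28e-04). Without airway replicates 1 and 2 the adjusted p was 0.0862, and that fit called 0 genes. Ctsw stood at 17.4, 2.81 and 6.42 in node and at 50, 85.9 and 60.5 in airway libraries, again without overlap and in the opposite direction (log2 fold change 3.01, SE 0.53, adjusted p = 0.0143). Its call was lost without the low-value filter, with voom, without lymph node replicate 3 and without airway replicates 1 and 2 (adjusted p up to 0.314).

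Gzma was low in both reporter groups, at 2.15, 1.08 and 5.37 in node and at 11, 0 and 28.2 in airway libraries (168, 0 and 466 reads). The airway libraries lay on both sides of the lymph node range (log2 fold change 1.02, SE 1.11, adjusted p = 0.671; 95% interval -1.50 to 3.54), and the sign turned on the reads with voom (-0.32). Srgn stood at 1086, 1376 and 1280 in node and at 945, 792 and 937 in airway libraries (log2 fold change -0.48, SE 0.13, adjusted p = 0.0684), and with RPKM as deposited it passed the test (adjusted p = 0.0211). Nkg7 stood at 604, 1071 and 931 against 501, 793 and 324, with overlap (-0.74, SE 0.31, adjusted p = 0.229). With RPKM as deposited the median difference of all genes moved from -0.07 to -0.20 and the calls from 300 higher and 233 lower to 229 higher and 317 lower.

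Prf1 was listed at 0 in 4 of the 6 reporter libraries and had 251 reads (6.35) in airway replicate 2 and 131 reads (3.18) in lymph node replicate 3. Gzmk was listed at 0 in all 6, and Gzmc in 5, with 1 read in lymph node replicate 2. Klrb1c was listed at 0 in all 3 airway libraries and had 0, 32 and 12 reads in the lymph node. A count of 0 allows up to 3 reads by counting error alone, and a 0 in these reporter libraries may also be a failed estimate.

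Markers of other cells moved with this comparison. The 12 macrophage markers summed to 3448 to 7747 in the airway and 79.9 to 125 in the lymph node, with 9 of 9 tested called higher (2.97% of all genes were). Of these, Chil3, Marco, Ear2, Mpeg1 and Plet1 were under 1 in every lymph node library. They passed the filter only through the airway, which fixed their direction. The 11 basophil and mast cell markers summed to 179 to 319 in the airway and 607 to 922 in the lymph node, with Cma1, Mcpt8 and Hdc called lower. These sums were mostly Hdc (182 and 533 on average), and Cma1 passed the filter only through the lymph node. Fcer1a, Ms4a2, Gata2, Prss34 and Tpsb2 were listed at 0 in every library of both groups. The 16 NK and CD8 T cell markers summed to 123 to 138 in the airway and 6.78 to 26.5 in the lymph node, with 3 of 5 tested called higher: Fcer1g and Tyrobp, which myeloid cells also express, and Klrk1, a receptor gene of NK and CD8 T cells (146 to 288 reads in the airway, listed at 0 in the lymph node). Klrk1 thus passed the filter only through the airway. Ncr1 was listed at 0 in all 6 libraries, as were Eomes in the airway and Siglech in both groups. The part of these cells in the Gzmb and Ctsw differences was not tested.

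Lymph node and cultured OTII cells of the same genotype differ in source, stimulus and time, which cannot be told apart. Against the cultured libraries, lymph node wild type cells had lower Gzma (-6.61, SE 0.51, adjusted p = 5.95e-06), Gzmb (-4.24, SE 0.67, adjusted p = 8.21e-04), Prf1 (-2.55, SE 0.15, adjusted p = 8.82e-07), Gzmc (-2.06), Nkg7 (-1.35) and Ctsw (-0.55), and higher Klrb1c (2.11, SE 0.20, adjusted p = 1.90e-05) and Gzmk (0.89). These 8 of 9 members stand against 32.3% of 11508 genes called (14.1% higher and 18.2% lower). Groups were apart for all 9 members, Srgn included, against 57.7% of genes. In this fit of all OTII libraries, Klrb1c and Gzmk were under 1 in every cultured library and Prf1 in every lymph node library. These genes passed the filter only through the libraries where they were high, so their calls add little to the counts in either genotype. Calls were lost for Gzmc without cultured wild type replicate 2 (adjusted p = 0.0931), for Gzmk without lymph node replicate 1 (0.0538) or either cultured replicate (0.0802 and 0.0617) and with a pseudocount of 5 (0.126), and for Ctsw without lymph node replicate 1 (0.0695) or 3 (0.0590) or cultured replicate 1 (0.128) and with the replicate block (0.136).

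In knockout-labelled cells 6 of 9 members were called, against 34.3% of genes (16.0% higher and 18.3% lower). Groups were apart for 7, these and Klrb1c, against 49.7% of genes. Gzma (-8.71, SE 0.48, adjusted p = 4.83e-07) and Gzmb (-7.62, SE 0.64, adjusted p = 7.17e-06) had the lowest log2 fold changes of the 11508 genes, and Prf1 (-2.17) and Gzmc (-1.86) were lower in the lymph node as well, Gzmc not without cultured replicate 1 (adjusted p = 0.102) or 2 (0.0773) or with the replicate block (0.0733). Ctsw was higher in the lymph node (2.32, SE 0.15, adjusted p = 1.35e-06), and so was Gzmk (1.95, SE 0.23, adjusted p = 8.95e-05). Both culture comparisons share their libraries with the genotype comparisons above. Other markers moved with them: of 7 NK and CD8 T cell markers tested, 4 were called lower in the lymph node in each genotype (Eomes, Klrk1, Klrd1 and Fcer1g, with Eomes at 1.14 against 14.9 in wild type) and 1 higher. Of 4 B cell markers tested, 3 were called higher in each genotype, Cd79a among them (4.20 against 0.528 in wild type). Cd79b was not called and averaged lower in the lymph node (7.62 against 8.77 in wild type and 7.52 against 10.3 in knockout-labelled cells). Klrk1, Klrd1 and Fcer1g were under 1 in every lymph node library, so they passed the filter only through culture. The part of all these markers in the results was not tested.

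The balance of granzyme A to granzyme B transcripts was described by the ratio within each library. The ratio of their RPKM was 0.0019 to 0.0089 in the lymph node reporter libraries, where Gzmb was high with hardly any Gzma. It was 0.230 to 0.563 in lymph node wild type, 0.328 to 1.15 in lymph node knockout-labelled, 1.45 to 2.20 in cultured wild type and 1.11 to 2.69 in cultured knockout-labelled libraries, so that Gzma exceeded Gzmb in all 4 cultured libraries. In the airway libraries the ratio was 0.352, 0 and 0.524. The airway range overlapped that of lymph node wild type, and the lymph node knockout-labelled range overlapped both that of lymph node wild type and that of cultured knockout-labelled libraries, with 22 Gzma and 33 Gzmb reads behind the highest lymph node knockout-labelled ratio. The lymph node reporter range did not overlap that of either lymph node OTII group, and no test was made across the 2 kinds of mice.

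**Figure D3:**
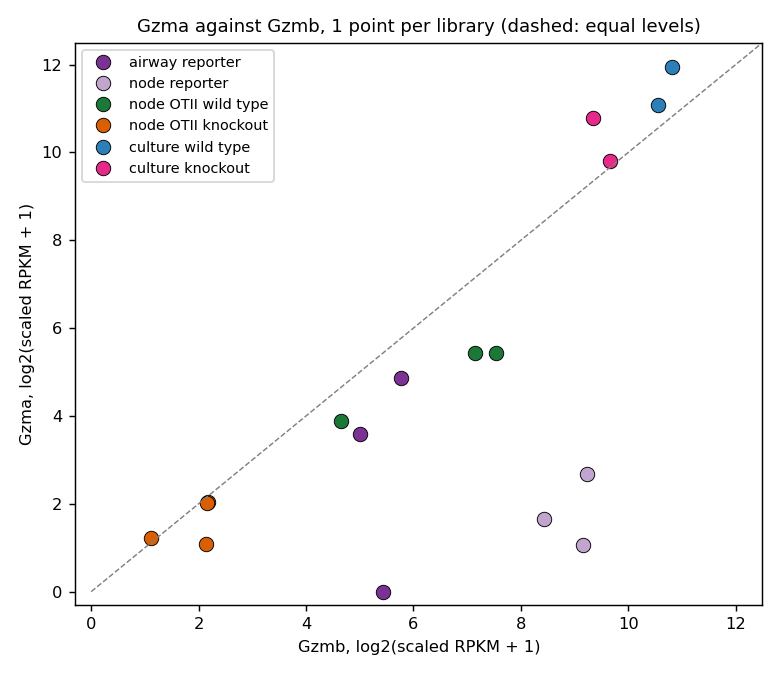
Gzma against Gzmb, both as log2(scaled RPKM + 1), with 1 point per library and a dashed line of equal levels. The cultured libraries lie above the line, the 3 lymph node reporter libraries (Gzmb 345 to 601, Gzma 1.08 to 5.37) lie far below it, and the lymph node knockout-labelled libraries are near the origin.

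Along the order of group means, neighbours were apart at some steps only. Gzmb ran from cultured wild type (1657 ± 216, n = 2) through cultured knockout-labelled (733 ± 113, n = 2), lymph node reporter (505 ± 139, n = 3), lymph node wild type (117 ± 82.8, n = 3) and airway (42.4 ± 11.4, n = 3) to lymph node knockout-labelled libraries (2.88 ± 1.15, n = 4), and the libraries of lymph node wild type and airway overlapped. Gzma ran from cultured wild type (3077 ± 1267) and cultured knockout-labelled (1326 ± 605) through lymph node wild type (32.7 ± 16.5), airway (13.0 ± 14.2) and lymph node reporter (2.86 ± 2.23) to lymph node knockout-labelled libraries (2.15 ± 1.07), and every step after lymph node wild type was within overlap. Ctsw ran from lymph node knockout-labelled (336 ± 52.6) and cultured wild type (95.3 ± 5.96) to cultured knockout-labelled (65.9 ± 5.33), airway (65.5 ± 18.4) and lymph node wild type (64.8 ± 7.80), whose libraries overlapped, and then lymph node reporter libraries (8.87 ± 7.59).

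The further granzyme genes, Gzmd, Gzme, Gzmf, Gzmg, Gzmm and Gzmn, were at background or low. None had a group mean of 1 or more and none was tested in any comparison. Gzmg and Gzmn had no read in the 17 libraries. Gzmf, of the chromosome 14 cluster, had 1 to 19 reads in lymph node wild type and 7 to 20 in lymph node knockout-labelled libraries, and Gzmm 10 to 26 reads in these 7 libraries.

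Genes around the granule were counted from lists in the lymph node genotype comparison. The ligand and cytokine genes of cytotoxic cells moved in the other direction from Gzma and Gzmb: of 9 listed, 7 were tested and 7 rose (median log2 fold change 1.77, against 0.02 over all genes; 10.4% of all genes rose). Ccl3, Ccl4 and Xcl1 were at most 0.14, 0.357 and 0.185 in wild type libraries, below the filter's 1. Any of them that was tested entered only through the knockout-labelled libraries, so its direction was fixed in advance. Ccl5, a chemokine of effector T cells, averaged 3.16 ± 1.52 in wild type and 60.2 ± 19.4 in knockout-labelled libraries (a log2 difference of 3.87, SE 0.31; adjusted p = 9.19e-05). The death ligand gene Tnfsf10 (TRAIL) stood at 9.19 ± 0.50 and 45.1 ± 3.10 (2.18, SE 0.08, adjusted p = 2.69e-06), Lta at 8.85 ± 0.952 and 49.5 ± 18.3 and Tnf at 15.2 ± 2.10 and 55.6 ± 15. For all 4, the knockout-labelled libraries were above the wild type ones without overlap. The count fell to 4 of 8 tested without wild type replicate 2 or 3. In culture, 0 of 5 tested members of the list were called, and the interaction was called higher for 5 of 8 (3 without lymph node wild type replicate 2 or 3), against 2.35% of all genes. Xcl1 was under 1 in all other groups and could enter this fit only through lymph node knockout-labelled libraries, which fixed its direction. Ccl4 reached 1 outside that group only in a cultured wild type library (1.23), so its entry needed that group too. That count thus holds the same limit.

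Of the granule proteases and membrane proteins, 6 of 9 were tested, 2 rose and 2 fell, against 10.4% and 7.68% of all genes. The lysosomal protease gene Ctsd averaged 147 ± 13.5 in wild type and 374 ± 59.1 in knockout-labelled libraries (1.34 on the log2 scale, SE 0.13; adjusted p = 2.77e-04) and Ctsb rose by less (0.45). Calr, a chaperone also found in granules, fell (-0.31), and so did Ctsc (-0.42), whose product, cathepsin C, cuts granzymes into their active form. No gene of the list was called lower without any 1 of the wild type replicates or knockout-labelled replicates 3 or 4, with the first header number as a term, with the replicate block or without the filter, and 1 was called higher without wild type replicate 2 or 3 or with the block. Of the release machinery 8 of 9 were tested, and Stx11 (0.53) and Lyst (0.46) rose (10.4% of all genes did). Only 1 was called without any 1 of the wild type replicates or knockout-labelled replicates 3 or 4, with the first header number as a term or without the filter, and 0 with the replicate block (limma). Among serpins that inhibit granzymes or related proteases, 3 of 5 were tested and Serpinb6a rose (21.5 ± 2.02 to 43.3 ± 9.44; log2 fold change 0.96).

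Of the regulators, 16 of 18 were tested, 4 rose and 3 fell, against 10.4% and 7.68% of all genes. The called genes include the targeted Notch1 and Notch2 and the Notch pathway genes Rbpj and Dtx1, so the count is not one of cytotoxic regulators alone. Those with the smallest p were Dtx1 (43.7 ± 7.93 to 0.898 ± 0.216), Notch1, Rbpj, the DNA-binding partner of Notch (37.4 ± 4.91 to 107 ± 18.3; log2 fold change 1.49), and Notch2. The remaining called members were Id2, Nfil3 and Tbx21, named after their values were seen. Tbx21 encodes T-bet, a regulator of Ifng and of granzyme genes, and averaged 24.5 ± 3.65 in wild type and 53.2 ± 10.7 in knockout-labelled libraries (1.08 on the log2 scale, SE 0.16; adjusted p = 0.00229). Eomes, a related regulator, stood at 1.14 ± 0.585 and 1.19 ± 0.865 in the lymph node and at 14.9 ± 4.77 and 10.6 ± 4.89 in culture.

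**Figure D4:**
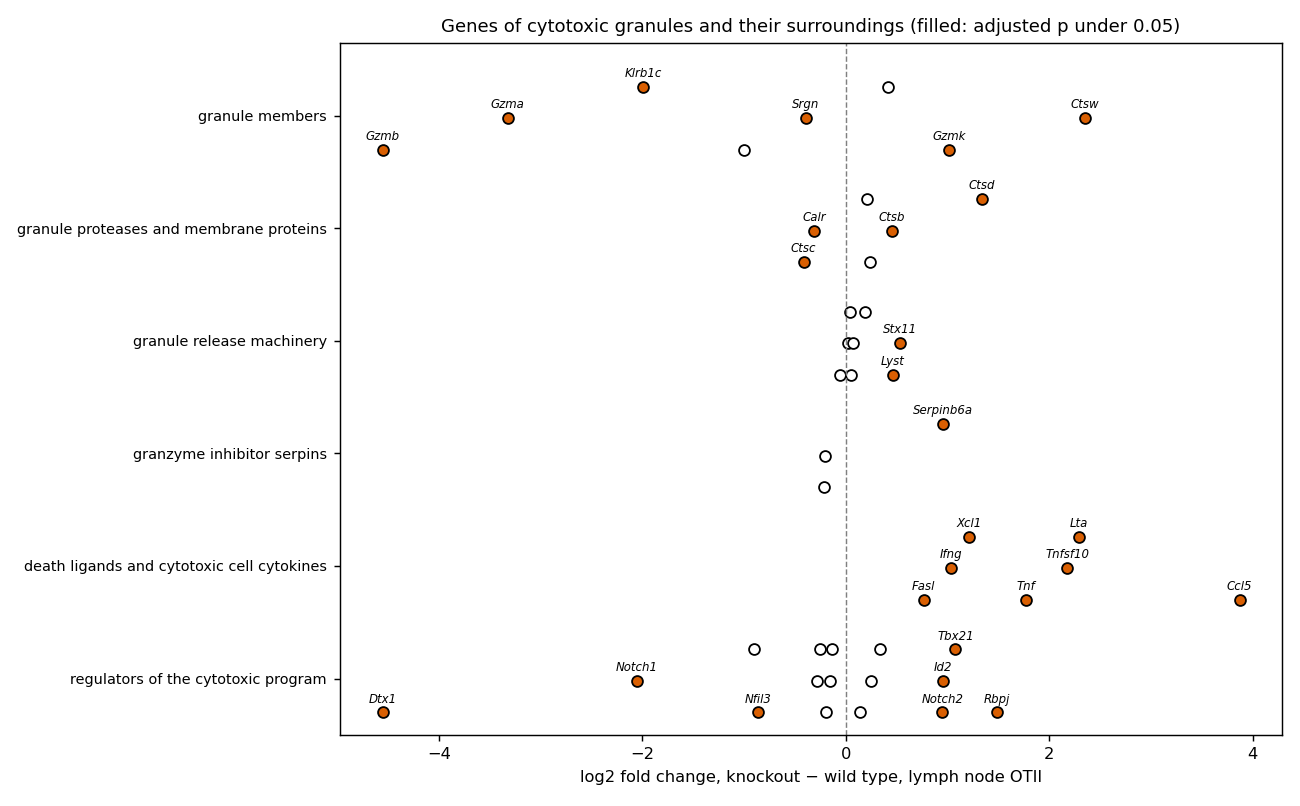
Log2 fold change of knockout-labelled against wild type lymph node cells for every tested gene of the 9 granule genes (top row) and of 5 lists, with 1 point per gene and called genes filled and named. The 7 tested ligand and cytokine genes lie to the right of 0 while Gzma and Gzmb lie to the left, and points are spread in height for legibility only.

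In the airway comparison, 1 or 2 genes of most lists were called. Ccl5 rose in the airway (52.5 ± 23.8 against 3.34 ± 3.10 in the node; 3.94 on the log2 scale, SE 0.71; adjusted p = 0.0153), the only called gene among 8 tested ligand and cytokine genes, where 2.97% of all genes rose. Its call was lost with a pseudocount of 0.1, without the filter, with voom, without lymph node replicate 3 and without airway replicates 1 and 2. Cd63 (2.60) and Serpinb1a (2.88) rose and Calr (-1.32) fell, and no gene of the release machinery was called by limma among 7 tested. Without any 1 of the lymph node replicates, without the filter and with voom, no protease or membrane protein gene and no serpin gene was called higher, the latter also with a pseudocount of 0.1 or without airway replicate 3, while 1 protease or membrane protein gene was called lower in each of these. Without airway replicates 1 and 2, no gene was called. Of the regulators, Bhlhe40 (1.03) and Stat4 (1.11) rose, and Dtx1 was called lower and listed at 0 in all 3 airway libraries. Dtx1 thus passed the filter only through the lymph node. Without any 1 of the lymph node replicates no regulator was called, and without the filter none was called higher. The macrophage, basophil and NK marker values given above belong beside these genes as well, and their part was not tested.

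The genes whose pattern over the 17 libraries was most like that of a granzyme were ranked by the root mean square difference of centred log2 values over 10238 genes. Closest to Gzmb were the interferon-induced membrane protein gene Ifitm2 (1.85), the interleukin-2 receptor gene Il2ra (2.06), Fam20a (2.15), Atp8b4 (2.17) and the transcription factor gene Nfil3 (2.21), against a spread of Gzmb about its own mean of 3.13. Closest to Gzma were Ifitm1 (1.2), the cytokine gene Il24 (1.81), the fatty acid desaturase gene Fads2 (1.96), Aqp9 (2.22) and Tspan9 (2.28), against a spread of 3.82. Ifitm1 averaged 437 in cultured wild type, 234 in cultured knockout-labelled, 3.63 in lymph node wild type and 0.628 in lymph node knockout-labelled libraries. Ifitm2 averaged 320, 202, 45.8 and 12.7 in the same order. These likenesses are descriptions, and all the genes share the same libraries and depth.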

How the data were processed

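For each of 17 libraries the authors deposited RPKM (reads normalized to transcript length and library size) of 24537 genes on mm10. Reads were aligned with HISAT2 2.0.4 and quantified with HOMER, and DESeq2 was used, per the submitters' processing notes; DESeq2 comparisons were not used here. The reporter and OTII tables name another transcript for 1644 genes, Klrb1c among the members. Low RPKM times transcript length gave whole multiples of 1 read (tolerance 0.1, below 100 reads), which gave depth and reads.

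Each library's RPKM was divided by its median-of-ratios factor, taken from 6796 genes at 1 or more in all libraries. A limma 3.58.1 fit (R 4.3.3; eBayes with a mean trend) was made on log2(scaled RPKM + 1), with two-sided p, adjusted after Benjamini-Hochberg over the genes tested and called under 0.05. Genes entered a fit with a scaled RPKM of at least 1 in as many libraries as the smallest group of the fit holds. The reporter groups, the lymph node OTII groups and the cultured groups were fitted apart, and the interaction and lymph node against culture in 1 fit of the 4 OTII groups. Tables were joined with Python 3.11.15 and pandas 2.3.3.

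The members and lists were chosen with earlier results of these data known. Named were the 9 members, up to 4 called genes per list with the smallest p, Notch1, Notch2 and Dtx1, and the 5 genes most like Gzmb and Gzma. Alternatives were pseudocounts of 0.1 and 5, no filter, RPKM as deposited, voom on reads, a joint fit, each replicate left out and a replicate block; where a group was left with 1 library, that library was assumed to vary like the other groups. Averaging by the first header number, the first or second header number as a term, leaving out 2 airway libraries and a crossed block were chosen after seeing the data. Same-numbered replicates did not deviate together, so the numbers were not treated as pairs. For member proteins no sequence was used here.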

Additional observations from a re-analysis of the deposited data

Results flagged for a closer look

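Gzmb was 1.16 scaled RPKM (33 reads) in lymph node knockout-labelled replicate 4 against 3.38 to 3.52 in the other knockout-labelled libraries, and its gap to the nearest of them was 0.942 of the group's range, above Dixon's limit for 4 samples. Ctsw was 257 in lymph node knockout-labelled replicate 2 against 358 to 367 in the others, with a gap of 0.919 of the range. Chance marks about 1 in 20 groups in this way. The genotype difference of Ctsw was 2.35 in the lymph node and -0.53 in culture, apart by 2.87 on the log2 scale in the interaction test over 11 libraries. That of Klrb1c differed by -1.85 in the same test, with 1 to 9 reads in the cultured libraries. Klrb1c entered that fit only through the lymph node wild type libraries, and its call was lost on the reads with voom (adjusted p = 0.305).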

How the results depend on the processing

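Among 645 values of single granule genes under other settings, 587 kept their direction and their side of the threshold, 19 passed only there, 29 no longer passed and 10 changed sign, none of these 10 with a call. Sign changes were Gzma in the airway comparison with voom (-0.32) and without airway replicate 3 (-0.0032; range with a replicate left out -0.0032 to 2.43), Srgn in culture without wild type replicate 2 (-0.079) and knockout-labelled replicate 1 (-0.086; range -0.086 to 0.10), Nkg7 in knockout-labelled lymph node against culture without cultured replicate 2 (0.19; range -0.34 to 0.19), and in the interaction Gzmc with voom (-0.084), without lymph node wild type replicate 1 (-0.48) and without cultured wild type replicate 2 (-0.20; range -0.48 to 0.66) and Prf1 with a pseudocount of 0.1 (-0.15) and voom (-0.48); the cause was not tested. The lymph node genotype calls of Gzma, Gzmb, Ctsw and Klrb1c held under all 17 other settings. In the airway comparison the called genes numbered 533 and became 224 without the filter, 231 with voom, 113 to 554 with a replicate left out and 0 without airway replicates 1 and 2; called granule genes went from 2 to 1, 1, 1 to 2 and 0. In the culture comparison (0 genes and 0 granule genes), leaving out a replicate left a group of 1 library, so no count is given there. In the lymph node genotype comparison it gave 1008 to 2716 genes and 4 to 6 granule genes (1965 and 6), lowest when wild type replicate 2 (1008), wild type replicate 3 (1045) or knockout-labelled replicate 4 (1303) was left out. It gave 195 to 555 genes and 2 to 5 granule genes in the interaction (442 and 2), 2261 to 3298 genes for wild type and 2605 to 4292 for knockout-labelled lymph node against culture (3722 and 3947). In culture, voom gave 2 genes and the joint fit 1; in the interaction voom gave 1 granule gene. Same-numbered replicates deviated together with r of 0.0049 to 0.027 in the reporter groups, -0.32 to -0.06 in the lymph node OTII groups and -0.19 in culture. Deviations were taken from the group mean and sum to 0 within a group, so the r of different pairs are not independent. With 2 libraries a group, every r in culture is the same number with either sign (0.19 or -0.19). The numbers in the titles were not taken as pairs. By the second header number of the lymph node OTII libraries, whose meaning is not given, 5 of 6 pairs that share it had a positive r (-0.06 to 0.497) and 1 of 6 pairs that do not (-0.39 to 0.26). These pairs are not independent counts either. With the second header number as a term, 2421 genes and 7 granule genes were called, Nkg7 added. A replicate block gave 630 genes in the lymph node genotype comparison, 65 genes and 4 granule genes in culture, 135 in the interaction, and 1466 and 1513 for lymph node against culture in wild type and knockout-labelled cells, and a block with crossed numbers gave 8 genes and 2 granule genes in culture. Depth limits Gzmk, Prf1, Klrb1c and Gzmc, with under 100 reads in many libraries.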
